A study of Mus musculus with 8 samples.

Results

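Outflow veins of arteriovenous fistulas that had received vehicle were described here by the absolute level of each gene, in 4 of the 8 samples of the series. A gene was included when its mean over those 4 samples was at least 1 RPKM (reads per kilobase per mega-read, a level that corrects for gene length and sequencing depth). That rule took 12100 of the 23358 genes in the deposited table. Chronic kidney disease had been modelled in C57BL6J mice, in which a fistula joined the carotid artery to the jugular vein 28 days later and the outflow vein was removed 3 days after surgery. RNA was measured by bulk sequencing from 0.5 µg of total RNA per sample with the TruSeq V2 kit. The other 4 samples came from veins treated with mesenchymal stem cells, and none of their values was used. All 4 vehicle samples shared the strain, the kidney disease model, the surgery and the harvest time, and no sample of a vein without a fistula or without kidney disease was set beside them. The labels do not say how kidney disease was produced, whether the vehicle was cell medium, or whether the 4 samples are 4 animals. Means are given ± SD over the 4 samples (n = 4), and where 4 values are listed they belong to vehicle replicates 1, 2, 3 and 4 in that order, which is a naming and not a sequence.

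An arteriovenous fistula is the preferred access for haemodialysis: a vein is joined to an artery so that arterial pressure and flow widen it. In the first days the vein wall is a wound as well as a vessel. Its lining of endothelial cells meets arterial shear, its smooth muscle is stretched, monocytes and neutrophils enter, and adventitial fibroblasts (cells of the outer layer) divide and lay down collagen. Later overgrowth of such cells narrows many fistulas. Perivenous fat and neck muscle lie against the jugular vein and can be removed with it.

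Reads assigned to genes came to at least 32.1, 31.2, 31.2 and 26.1 mega-reads in the 4 samples, recovered from the steps of the RPKM values. Between 11962 and 12178 genes reached 1 RPKM in a sample. The Y-linked genes Ddx3y, Eif2s3y, Uty and Kdm5d were detected in every sample, with Ddx3y at 21.9, 23.8, 24.1 and 18.6 RPKM, while Xist, the RNA that silences an X chromosome in female cells, did not exceed 0.0230 RPKM. Replicate 1 stood apart from the other samples. Its Spearman correlations with them over the 12100 genes were 0.958, 0.956 and 0.950, against 0.978 to 0.979 among replicates 2, 3 and 4. These correlations are across genes, which are not independent replicates. Replicate 2 held transcripts of kidney tubule that were near 0 elsewhere. Kap, the kidney androgen-regulated protein, was at 0.854, 24.5, 0 and 0.0419 RPKM, and a list of 21 tubule genes, written after these values had been seen, summed to 45.0 RPKM in replicate 2 against 1.08 to 2.37 RPKM in the other samples. The list sums that replicate 1 or 2 moves most are given with and without it. No pair of samples had reads that agreed within sampling noise (chi-square per degree of freedom from 44.3 to 109), so none was treated as 1 library deposited more than once. That does not show whether they came from separate animals.

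Most detected genes were present at low levels. Of the 12100 genes, 6854 (56.6%) had means from 1 to 10 RPKM, 4832 (39.9%) from 10 to 100 RPKM, 395 (3.26%) from 100 to 1000 RPKM and 19 at 1000 RPKM or more. All 4 samples were at or above 1 RPKM for 11480 of them, 3 samples for 405, 2 for 184 and 1 for 31. A further 572 genes reached 1 RPKM in at least 1 sample but not on average. Mex3a and B230217C12Rik, each with a mean of 1.001 RPKM, lay just inside the threshold, and Ccdc15 (mean 0.9998 RPKM) and Mn1 (mean 0.9993 RPKM) just outside it. The 4 genes are near neighbours on a continuous scale, so the boundary has no meaning of its own. Leaving out 1 sample at a time gave 12073 to 12119 genes. The included genes carried 99.4% to 99.5% of the summed RPKM of each sample. Of the 11983 that matched the GENCODE vM21 annotation, 11552 (96.4%) were protein-coding, 99 were microRNA genes and 83 small nucleolar RNA genes. Short genes were overrepresented at the top: the median annotated exon length was 2015 bases for the 100 most abundant genes and 4406 bases for all included genes. Of those 100 genes, 46 had symbols of the ribosomal protein type, against 95 of all 12100. The lengths were not compared without them.

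Expression was concentrated in few genes. No gene of the mitochondrial genome was in the deposited table, so ranks and shares are those of the other genes. The 20 most abundant genes of each sample held 13.3%, 11.9%, 12.8% and 14.8% of its summed RPKM (13.2% ± 1.22), and 475, 515, 537 and 482 genes held 50% of it. The highest row was Rn45s, the precursor of ribosomal RNA, at 4987, 3277, 3577 and 7361 RPKM. Second was Lars2, which encodes the mitochondrial leucyl-tRNA synthetase, at 3936, 3315, 3552 and 5078 RPKM. Both were highest in replicate 4 and lowest in replicate 2, and together they made up 3.02%, 2.16%, 2.32% and 4.37% of the summed RPKM. Kits of this type select polyadenylated RNA, and mature ribosomal RNA carries no such tail. The source of the Rn45s and Lars2 reads was not tested. Without these 2 rows, an alternative chosen after seeing the data, the 20 most abundant genes held 11.2%.

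**Figure D1:**
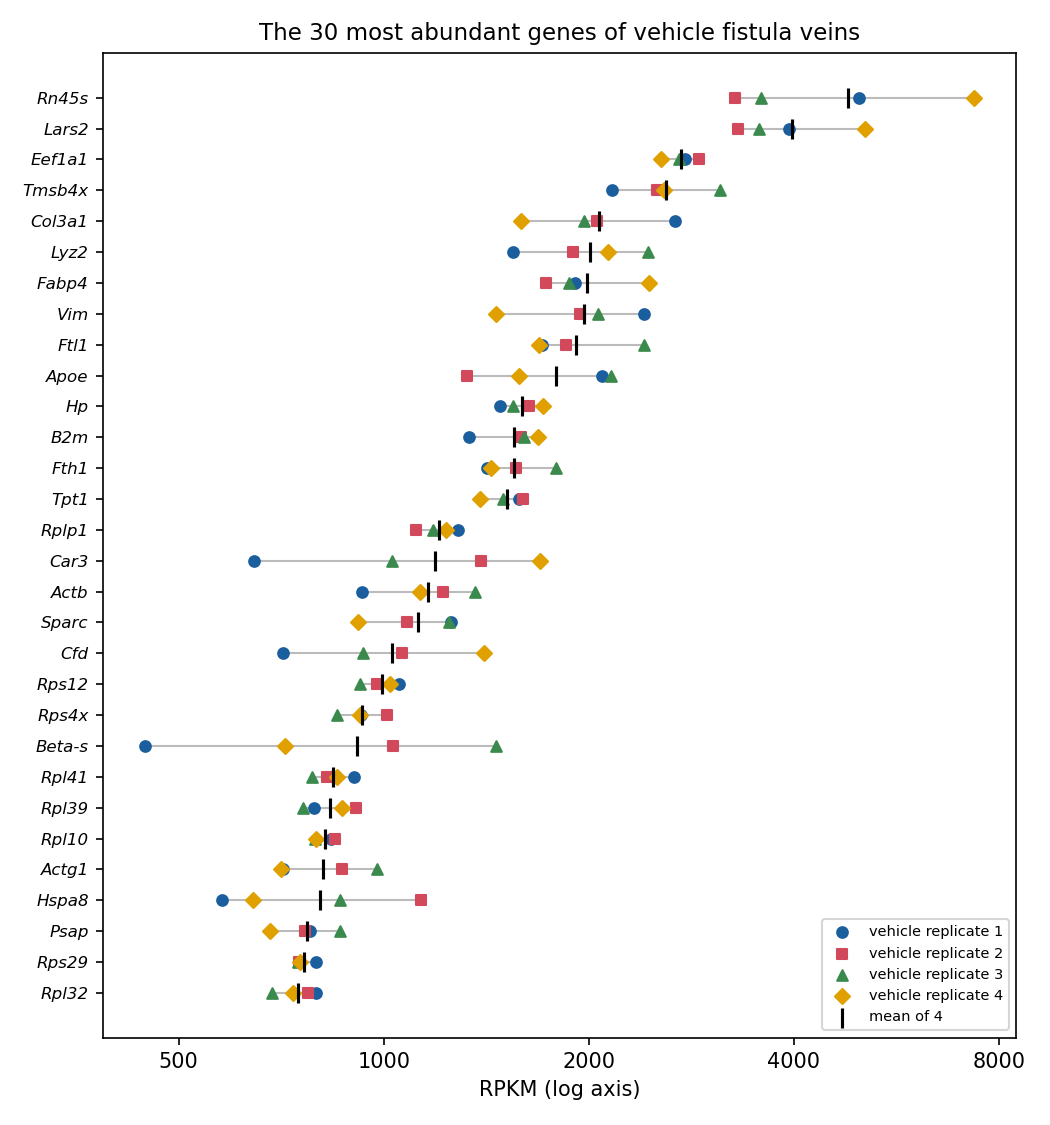
The 30 genes of highest mean, each with its RPKM in the 4 vehicle samples (coloured symbols) and the mean (black bar) on a log axis; grey lines span the range. Rn45s spans 3277 to 7361 RPKM and Eef1a1 only 2554 to 2899 RPKM, while Beta-s, Car3 and Cfd have wide ranges.

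The plot of the 30 most abundant genes can be read by role. Genes of protein synthesis were at the top: the elongation factor Eef1a1 stood at 2733 ± 142 RPKM and the 84 rows of cytosolic ribosomal proteins together held 11.7% ± 0.640 of the summed RPKM. They differed little between samples, as in Rpl10 at 837, 849, 793 and 796 RPKM. Cytoskeletal genes were spread through the 30. Thymosin beta 4 (Tmsb4x), which binds actin monomers, had 2592 ± 392 RPKM, the intermediate filament vimentin (Vim, chr2:13573927-13582826, plus strand) 1969 ± 394 RPKM, and the cytoplasmic actins Actb 1161 ± 182 and Actg1 816 ± 130.5 RPKM.

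Connective tissue genes were represented by Col3a1 and Sparc. Col3a1, the chain of type III collagen (chr1:45311538-45349706, plus strand), was at 2676, 2054, 1966 and 1589 RPKM. It was highest in replicate 1 and lowest in replicate 4. Sparc, a secreted protein that binds collagen, was at 1253, 1080.3, 1246 and 917 RPKM. Its lowest sample was again replicate 4, while replicates 1 and 3 were nearly equal. All collagen chains together held 1.37% ± 0.266 of the summed RPKM, from 1.19% in replicate 4 to 1.77% in replicate 1.

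Genes of phagocytes and of iron handling stood close to Col3a1. Lysozyme 2 (Lyz2, chr10:117277331-117282321, minus strand), made by macrophages and neutrophils, was at 1550.4, 1898, 2439 and 2136 RPKM, lowest in replicate 1 and highest in replicate 3. The ferritin chains Ftl1 and Fth1, which store iron, stood at 1914 ± 337 and 1552 ± 173 RPKM, and apolipoprotein E (Apoe) at 1787 ± 403 RPKM. Haptoglobin (Hp), which binds free haemoglobin, was at 1482, 1634, 1547 and 1713 RPKM and differed little between samples. Beta-s, a haemoglobin beta chain of red cells, was at 446, 1032, 1463 and 716 RPKM, more than 3 times higher in replicate 3 than in replicate 1. Haemoglobin genes have near-identical copies, so how reads were divided among them is uncertain. Their sum was 0.308% ± 0.139 of all RPKM.

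Among the 30 most abundant genes, 3 are characteristic of fat. The fatty acid carrier Fabp4 (chr3:10204088-10208576, minus strand), found in adipocytes and also in capillary endothelium and macrophages, was at 1911, 1730.01, 1868 and 2453 RPKM. Carbonic anhydrase 3 (Car3), abundant in adipocytes and slow muscle, was at 646, 1388, 1027 and 1698 RPKM, and adipsin (Cfd), a serine protease secreted by adipocytes, at 711, 1063, 932 and 1402 RPKM. Each of the 3 was highest in replicate 4. Car3 and Cfd were lowest in replicate 1 and placed the samples in the same order, 1, 3, 2 and 4 from low to high.

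The metallothioneins Mt2 (chr8:94172664-94173568, plus strand) and Mt1, small proteins that bind zinc and are induced by metals and glucocorticoids, differed widely between samples. Mt2 was at 1412, 622, 365 and 296 RPKM and Mt1 at 1235, 545, 337 and 232 RPKM. Replicate 1 was more than 2 times higher than each other sample for both genes. Without it, the highest value of Mt2 was 622 RPKM. A list of 12 glucocorticoid-induced genes was written after these values had been seen and holds both metallothioneins, so its count restates them in part. Its other 10 genes were chosen at the same stage, so their count is a description as well. Of these 10 genes, 8 were highest in replicate 1, where 25.04% of all included genes were highest. Those 10 genes summed to 600, 388, 234 and 218 RPKM, and their mean sum was 280 RPKM without replicate 1 against 360 RPKM with it. Among them Fkbp5, a co-chaperone of the glucocorticoid receptor, was at 69.9, 35.96, 23.2 and 9.54 RPKM and Tsc22d3 at 116, 43.7, 47.8 and 34.4 RPKM. Whether this list and the position of replicate 1 share a source was not tested.

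To describe which cells the tissue held, 27 lists of marker genes were summed in each sample. Over all genes in the table, 51.8% reached a mean of 1 RPKM and the median mean was 1.29 RPKM, which is the level against which each list can be read. Because whole tissue was sequenced, fewer cells of a type and less RNA per cell cannot be told apart. Counts of genes by their highest or lowest sample are read against all 12100 included genes, of which 25.04% were highest in replicate 1, 18.3% in replicate 2, 41.9% in replicate 3 and 14.8% in replicate 4, and of which 38.4% were lowest in replicate 1, 18.02% in replicate 2, 8.58% in replicate 3 and 35% in replicate 4. A sum also depends on how many genes a list has and on how abundant they are in their cell type, so sums of different lists do not rank cell types by number.

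**Figure D2:**
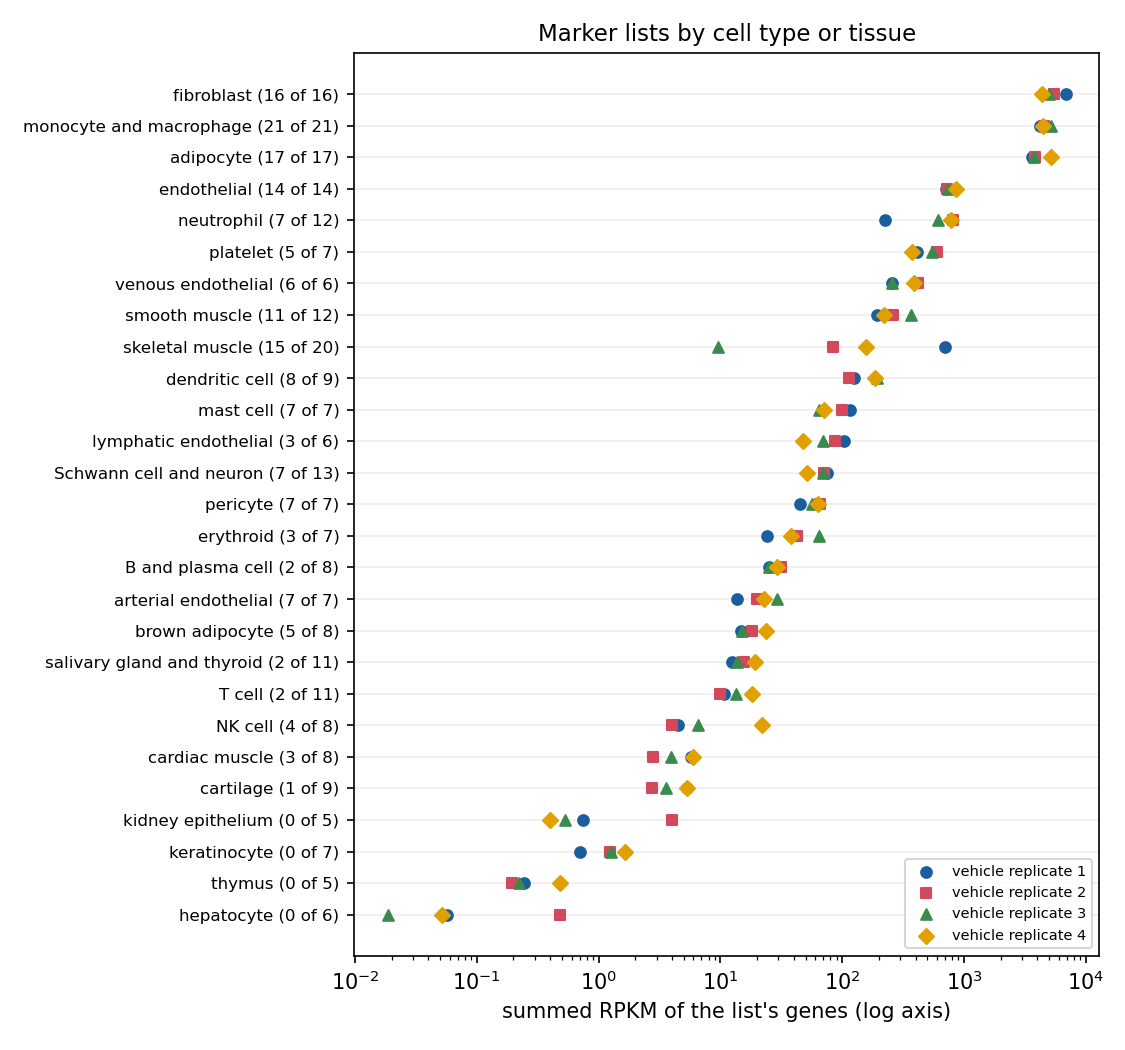
Summed RPKM of each marker list (log axis) in the 4 vehicle samples; in brackets, genes averaging 1 RPKM or more, of those in the table. Fibroblast, macrophage and adipocyte lists lie at 3603 RPKM or more in every sample, and the skeletal muscle list spans 9.60 to 692 RPKM.

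Fibroblast genes had the highest mean sum of the 27 lists, although the macrophage sum was higher in replicates 3 and 4 and the adipocyte sum in replicate 4. All 16 were above 1 RPKM and their sum was 6817, 5509, 5004 and 4384 RPKM, with 11 of 16 genes highest in replicate 1 and 12 lowest in replicate 4. The defining markers were Pdgfra, the receptor for PDGF-A, at 53.4, 41.7, 29.7 and 25.9 RPKM and dermatopontin (Dpt), a matrix protein of adventitial fibroblasts, at 232, 196, 199.8 and 128 RPKM. Both were highest in replicate 1. Periostin (Postn), which is induced in wounds, was at 503 ± 148 RPKM, the type I collagen chains Col1a2 and Col1a1 at 556 ± 141 and 490.2 ± 114 RPKM, and Ly6a, a surface marker of adventitial progenitors, at 441 ± 111 RPKM. Without replicate 1 the mean sum of the list was 4966 RPKM, against 5428 RPKM with it.

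Macrophage genes were detected throughout. The 21 genes of the monocyte and macrophage list were all above 1 RPKM, with sums of 4206, 4535, 5206 and 4497 RPKM. Csf1r, the receptor for macrophage colony-stimulating factor, was at 138, 92.9, 132 and 111 RPKM and Adgre1 (F4/80) at 95.2, 87.7, 133 and 79.1 RPKM. Neither marker placed 1 sample far from the rest. Osteopontin (Spp1), a secreted phosphoprotein of activated macrophages, was at 274, 428, 456 and 514 RPKM, lowest in replicate 1. The list had no common order of samples, with 11 of the 21 genes highest in replicate 1, 5 in replicate 2, 4 in replicate 3 and 1 in replicate 4. As examples chosen after their values were seen, Mrc1, Cd163 and Mertk were highest in replicate 1, at 189, 46.9 and 24.4 RPKM, and the monocyte receptor Ccr2 at 48.4, 93.4, 112 and 97.5 RPKM and Ly6c2 at 7.35, 35.8, 13.3 and 25.9 RPKM were lowest there.

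Genes of mature neutrophils were detected, and those of their bone marrow precursors were not above the threshold. S100a8 (chr3:90668978-90670035, plus strand) and S100a9, the calprotectin subunits that fill the neutrophil cytosol, were at 78.9, 308, 233 and 295 and 101, 394, 293 and 376 RPKM. The granulocyte colony-stimulating factor receptor Csf3r was at 18.1, 47.04, 40.8 and 54.3 RPKM. Replicate 1 had the lowest value for 8 of the 12 neutrophil genes in the table, whatever their level, and the list summed to 224, 814, 609 and 779 RPKM. Its mean sum was 734 RPKM without replicate 1 and 607 RPKM with it. Genes of immature granulocytes lay below 1 RPKM: myeloperoxidase (Mpo) averaged 0.0879 RPKM, neutrophil elastase (Elane) 0.235 RPKM and cathelicidin (Camp) 0.385 RPKM. Ly6g was not analysed here.

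Lymphocyte lists had few genes above the threshold, 2 of 11 for T cells and 2 of 8 for B and plasma cells. None of the 3 T cell receptor complex genes Cd3e, Cd3d and Cd3g and none of the B cell genes Ms4a1 and Cd79a reached a mean of 1 RPKM. Cd3e was at 0.226, 0.234, 0.602 and 1.10001 RPKM. The genes above it were Il7r, the interleukin 7 receptor, at 6.41, 5.65, 7.105 and 6.58 RPKM, the adhesion molecule Cd2 at 1.42 ± 0.209 RPKM, Cd79b of the B cell receptor at 1.705 ± 0.6101 RPKM and syndecan 1 (Sdc1), which epithelial cells and fibroblasts also make, at 24.6 ± 3.86 RPKM. Of the 11 T cell genes, 10 were highest in replicate 4. NK cell genes were low as well, but uneven: granzyme A (Gzma) was at 0.937, 0.792, 1.61 and 6.21 RPKM and granzyme B (Gzmb) at 0.474, 0.412, 0.658 and 4.17 RPKM. All 8 NK genes in the table, of which 4 averaged 1 RPKM or more, were highest in replicate 4. Gzmb passed the threshold through replicate 4 alone. The list summed to 4.49, 4.04, 6.59 and 21.9 RPKM. Without replicate 4 its mean sum was 5.04 RPKM instead of 9.26 RPKM. Dendritic cell genes were modest, with the defining genes Zbtb46 at 2.82 ± 0.117 and Flt3 at 2.78 ± 0.413 RPKM, although the class II chain H2-Ab1, which macrophages also carry, reached 129 ± 35.6 RPKM. Mast cell proteases were detected, with carboxypeptidase A3 (Cpa3) at 18.2, 17.7, 7.496 and 8.36 RPKM and tryptase (Tpsb2) at 25.1, 17.4, 9.95 and 7.33 RPKM. Of the 7 mast cell genes, 6 were highest in replicate 1.

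Platelet and red cell genes were also measured. Platelet factor 4 (Pf4) was at 385, 542, 462 and 341 RPKM, but macrophages also make it. The integrin chain Itga2b, which defines the platelet lineage, was at 6.197, 4.56, 8.72 and 5.396 RPKM. Alas2, the first enzyme of erythroid haem synthesis, was at 17.5, 31.6, 41.4 and 26.7 RPKM and had the same highest and lowest samples as Beta-s, replicates 3 and 1. It was the most abundant gene of the erythroid list, in which 3 of 7 genes averaged 1 RPKM or more. The median gene mean of that list was 0.696 RPKM, and 1 of its 2 defining genes reached the threshold.

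Adipocyte genes formed the third large group. All 17 were above 1 RPKM and their sums were 3603, 3835, 3745 and 5203 RPKM, with 9 of 17 highest in replicate 4. The size of the sum rests largely on Fabp4, which averaged 1991 RPKM of a mean sum of 4096 RPKM. The median gene mean of the list was 67.9 RPKM. Because Fabp4 is also found in capillary endothelium and macrophages, the sum does not measure adipocyte content alone. Adiponectin (Adipoq) was at 171, 279, 224 and 379 RPKM, the lipid droplet coat protein perilipin (Plin1) at 41.2, 53.4, 68.95 and 108 RPKM and Cidec, which enlarges lipid droplets, at 161, 118, 117 and 154 RPKM. Adipoq and Plin1 were lowest in replicate 1 and highest in replicate 4, while Cidec was highest in replicate 1. Brown fat genes were low: the uncoupling protein Ucp1 was at 1.12, 1.09, 1.37 and 5.69 RPKM and Cidea at 0.855, 1.33, 1.27 and 1.12 RPKM, so that Ucp1 in replicate 4 was more than 4 times higher than in any other sample.

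Endothelial genes included both general and venous markers. Genes differ in level per cell and no other vessel was set beside these, so the levels do not test the label of a vein. Pecam1 and Cdh5, adhesion molecules of endothelial junctions, were at 171, 139, 152 and 153 and 53.02, 64.8, 74.5 and 83.7 RPKM. The 14 endothelial genes summed to 715, 722, 733 and 858 RPKM. The venous genes were higher per length than the arterial ones: P-selectin (Selp), which captures leukocytes, was at 61.8, 169.8, 84.98 and 119 RPKM, the venular chemokine receptor Ackr1 at 39.7, 75.5, 38.02 and 58.8 RPKM, and the venous ephrin receptor Ephb4 at 24.4, 23.8, 20.1 and 24.3 RPKM. Its arterial ligand Efnb2 was at 3.02, 3.09, 5.696 and 4.08 RPKM and the arterial Notch ligand Dll4 at 2.94, 5.46, 11.1 and 9.79 RPKM. Ephb4 exceeded Efnb2 by more than 3 times in every sample. The apelin receptor Aplnr was at 6.602, 43.4, 42.2 and 39.2 RPKM, and replicate 1 was more than 5 times lower than each other sample. The mean of Aplnr was 41.6 RPKM without replicate 1 and 32.9 RPKM with it. Arterial genes were lowest in replicate 1 for 6 of 7 genes and highest in replicate 3 for 5. Of the lymphatic genes, the defining factor Prox1 averaged 0.836 RPKM, below the threshold, and Lyve1, which macrophages also express, was at 60.7, 24.9, 18.7 and 12.8 RPKM.

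Smooth muscle genes were uneven in level. The 12 in the table summed to 194, 262, 364 and 222 RPKM, with a median gene mean of 9.59 RPKM. Acta2, smooth muscle actin (chr19:34241090-34255590, minus strand), which activated fibroblasts make too, was at 70.1, 111, 175 and 99.1 RPKM. The 2 defining markers, both of the contractile state, were much lower. Smooth muscle myosin (Myh11) was at 6.74, 15.5, 14.6 and 8.69 RPKM and calponin (Cnn1) at 1.02, 2.36, 3.98 and 1.95 RPKM. The coactivator Myocd, which drives these genes, averaged 0.259 RPKM. Of the 12 smooth muscle genes in the table, 10 were highest in replicate 3 and 8 lowest in replicate 1. The pericyte marker Rgs5 was at 11.7, 21.5, 14.003 and 22.7 RPKM, and all 7 pericyte genes were lowest in replicate 1, where 38.4% of all included genes were lowest. The pericyte sum averaged 62.2 RPKM without replicate 1 and 57.9 RPKM with it.

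Skeletal muscle genes had the widest range between samples of the 27 lists. They summed to 692, 83.7, 9.60 and 157 RPKM, a range of 72.1 times, and 19 of the 20 genes in the table were highest in replicate 1. Of these 20, 15 averaged 1 RPKM or more, some of them through replicate 1 alone, such as the calcium store protein Casq1 at 2.68, 0.443, 0.279 and 0.612 RPKM. Skeletal alpha actin (Acta1, chr8:123891769-123894751, minus strand) was at 139.6, 11.9, 0.317 and 23.8 RPKM, creatine kinase M (Ckm), which buffers ATP in muscle, at 69.9, 9.12, 0.0964 and 18.9 RPKM, and the fast myosin Myh4 at 38.1, 5.397, 0.0227 and 5.31 RPKM. The samples had the order 1, 4, 2 and 3 for Acta1 and Ckm. The fast isoforms Tnnt3, Tnni2 and Tnnc2 of troponin averaged 35.6, 23.04 and 25.99 RPKM, while the slow myosin Myh7 was at or near 0 in every sample. Without replicate 1 the mean sum was 83.6 RPKM, against 236 RPKM with it. The cardiac myosin Myh6 averaged 0.00291 RPKM.

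Lists of other neighbouring tissues had lower sums. The Schwann cell and neuron list summed to 74.6, 70.4, 70.2 and 51.5 RPKM, with 7 of 13 genes above the threshold. Myelin protein Pmp22, which fibroblasts also make, made up most of it at 48.6 ± 9.56 RPKM. The neuronal tubulin Tubb3 was at 4.58 ± 1.096 RPKM, while the Schwann cell regulator Sox10 averaged 0.303 RPKM. Of the 11 genes of the salivary gland and thyroid list 2 were above the threshold. The amylase gene Amy1 was at 9.85, 13.2, 10.7 and 15.7 RPKM, and thyroglobulin (Tg) averaged 0.0793 RPKM. The median gene mean of that list was 0.0192 RPKM, and its gene Dcpp1 was listed at 0 in every sample. The epidermal keratins Krt5 and Krt14, the hepatocyte gene Alb and the thymic gene Rag1 were listed at 0 in every sample. The 5 genes of the kidney epithelium list stayed below a mean of 1 RPKM. One of them, the proximal tubule phosphate transporter Slc34a1, was at 0.0632, 3.25, 0.00738 and 0.0165 RPKM, so the list summed to 4.02 RPKM in replicate 2 and at most 0.746 RPKM elsewhere. Without replicate 2 its mean sum was 0.557 RPKM, against 1.42 RPKM with it. Miox, an enzyme of the proximal tubule, was singled out for its values, at 0.0414, 4.07, 0 and 0.073002 RPKM. It is above the threshold because of replicate 2.

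Gene programmes of wound healing were described next, and nearly all of their genes were detected. Each of the 26 collagen and matrix genes was above 1 RPKM. Biglycan (Bgn), a small proteoglycan, was at 556 ± 86.9 RPKM and fibronectin (Fn1), the first scaffold of a healing wound, at 215, 214, 216 and 163 RPKM. Fn1 was nearly equal in replicates 1, 2 and 3 and lower in replicate 4. Of the 26 genes, 18 were highest in replicate 1 and 18 lowest in replicate 4. Elastin (Eln) was at 131, 91.2, 61.3 and 35.3 RPKM. Among proteases and their inhibitors, Timp1, an inhibitor of metalloproteinases, was at 188, 239.96, 244 and 274 RPKM. The gelatinase Mmp2 was at 90.01 ± 22.4 RPKM and lysyl oxidase (Lox), which cross-links collagen, at 185, 101, 101 and 62.5 RPKM. Timp1 was lowest in replicate 1, whereas Mmp2 and Lox were highest there.

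Acute inflammatory genes were present, all 25 of them above 1 RPKM. The acute-phase protein Saa3 was at 212, 101, 119.99 and 219.8 RPKM. The monocyte chemokines Ccl7 and Ccl2 were at 110.1, 297, 146 and 96.9 and 98.9, 245, 128 and 79.1 RPKM, each more than 1.5 times higher in replicate 2 than in any other sample. Without replicate 2 their means were 118 RPKM (Ccl7) and 102 RPKM (Ccl2), against 163 and 138 RPKM with it. Interleukin 1 beta (Il1b) was at 17.6, 101, 70.7 and 134 RPKM, lowest in replicate 1. Other cytokines were low, with Il6 at 7.41, 20.8, 7.53 and 6.47 RPKM and Tnf at 1.298, 2.01, 4.33 and 6.503 RPKM. The order of samples was not common to the list: 12 genes were highest in replicate 2 and 10 in replicate 4.

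Complement genes were abundant, with 17 of 18 above 1 RPKM and a sum of 2741, 2779, 2797 and 3063 RPKM. The median coefficient of variation (CV, the SD divided by the mean) of its genes above the threshold was 0.138, close to the 0.134 of all included genes, and members moved in opposite directions under the level sum. Adipsin (Cfd), its most abundant gene, was lowest in replicate 1 and highest in replicate 4, as given above, while C1qb was at 476, 329, 391 and 298 RPKM, highest in replicate 1 and lowest in replicate 4. Complement C3, the central component, was at 205, 217, 205 and 221 RPKM, and factor B (Cfb) at 105, 109, 108 and 117 RPKM. These 2 genes were nearly level across the samples. The 3 chains of C1q, made by macrophages, averaged 374 (C1qb), 234 (C1qa) and 218 (C1qc) RPKM. All 15 genes of coagulation and fibrinolysis were above 1 RPKM. Tissue factor (F3), which starts clotting, was at 9.43, 17.6, 12.4 and 11.2 RPKM, and thrombomodulin (Thbd), an endothelial brake on thrombin, at 31.1, 25.6, 18.4 and 14.8 RPKM. The transglutaminase F13a1, a clot-stabilising enzyme that macrophages also make, was higher at 129, 135, 111 and 73.3 RPKM.

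Genes of oxidative stress were abundant, and so were some of glycolysis. Haem oxygenase 1 (Hmox1), which degrades haem, was at 258, 282, 282 and 156 RPKM and lowest in replicate 4. The antioxidant enzymes peroxiredoxin 1 (Prdx1) and glutathione peroxidase 1 (Gpx1) were at 301 ± 67.1 and 250.4 ± 33.6 RPKM. Some glycolytic enzymes were high, with Pkm at 239, 293, 299 and 281 RPKM, Ldha at 208, 249.97, 266 and 244 RPKM and Aldoa at 231, 233, 243 and 232 RPKM. Eno1 was lower, at 10.1, 18.5, 18.3 and 13.4 RPKM. Aldoa was almost equal in the 4 samples. The hypoxia-inducible factor Hif1a was at 59.04, 87.4, 77.3 and 62.5 RPKM, while the carbonic anhydrase Car9, one of its targets, was at 1.18, 0.985, 1.42 and 1.51 RPKM. All 21 genes of the hypoxia and glycolysis list were above 1 RPKM, and 14 (66.7%) were lowest in replicate 1, against 38.4% of all included genes.

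Dividing cells were present in every sample. All 25 cell cycle genes were above 1 RPKM. The proliferation antigen Mki67 was at 15.1, 15.3, 22.4 and 15.8 RPKM, DNA topoisomerase Top2a at 20.96, 24.5, 35.4 and 24.1 RPKM and the replication clamp Pcna at 66.04, 79.1, 90.97 and 69.6 RPKM. Replicate 3 was the highest sample for each. It was highest for 24 of the 25 genes, against 41.9% of all included genes. The exception was Cdkn1a, the p21 inhibitor of division, at 55.3, 32.6, 28.99 and 23.8 RPKM and highest in replicate 1. Immediate early genes, which respond within minutes to injury or handling, had another order: 13 of 20 were highest in replicate 2 and 14 lowest in replicate 3. Their mean sum was 781 RPKM without replicate 2 and 915 RPKM with it. Fos was at 194, 344, 92.7 and 145 RPKM and Egr1 at 47.5, 89.2, 20.6 and 45.9 RPKM. Of the 16 genes written down as venous stenosis candidates, all were above 1 RPKM, and their summed level was 1648, 1681, 1633 and 1564 RPKM.

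Interferon response genes separated the samples in a uniform way. All 19 were above 1 RPKM and all 19 were lowest in replicate 1, while 16 were highest in replicate 2 and 3 in replicate 4. Their sum was 1018, 2361, 1333 and 1778 RPKM. These genes encode antiviral proteins and are switched on by interferon through a complex of transcription factors that binds an element called the ISRE in their promoters. The ubiquitin-like protein Isg15 (chr4:156199424-156200818, minus strand) was at 14.7, 143, 31.97 and 81.8 RPKM. The antiviral proteins Ifit3 and Ifit1 were at 8.99, 91.98, 16.5 and 38.3 and 5.17, 63.2, 13.2 and 33.4 RPKM, and the chemokine Cxcl10 at 2.95, 74.2, 6.78 and 28.7 RPKM. In each of these 4 genes the samples ran 2, 4, 3 and 1 from high to low. Without replicate 2 the mean sum of the list was 1376 RPKM, against 1623 RPKM with it. Replicate 2 is also the sample with kidney tubule transcripts, and any link between these observations was not tested. Ifit1 was named after its values were seen.

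The promoters of these genes are printed because these genes shared 1 order of the samples. Sequences are from RefSeq on GRCm38.p6 and cover 250 bases before to 50 bases after the start of each gene, 5′ to 3′ on the gene's strand. The core searched on both strands was GAAA, then any 2 bases, then GAAA again, which reads as TTTC, 2 bases and TTTC on the other strand. Capitals mark its matches, counted without overlap. They lie at chr19:34640639-34640938 (plus strand) for Ifit1, chr19:34583279-34583578 (plus strand) for Ifit3, chr4:156200769-156201068 (minus strand) for Isg15 and chr5:92348840-92349139 (minus strand) for Cxcl10.
Ifit1: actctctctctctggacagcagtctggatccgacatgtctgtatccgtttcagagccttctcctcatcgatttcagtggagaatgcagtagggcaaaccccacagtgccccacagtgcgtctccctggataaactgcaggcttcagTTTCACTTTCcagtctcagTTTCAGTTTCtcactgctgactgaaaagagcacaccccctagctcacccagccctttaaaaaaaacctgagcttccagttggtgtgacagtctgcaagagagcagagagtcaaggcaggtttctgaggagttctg
Ifit3: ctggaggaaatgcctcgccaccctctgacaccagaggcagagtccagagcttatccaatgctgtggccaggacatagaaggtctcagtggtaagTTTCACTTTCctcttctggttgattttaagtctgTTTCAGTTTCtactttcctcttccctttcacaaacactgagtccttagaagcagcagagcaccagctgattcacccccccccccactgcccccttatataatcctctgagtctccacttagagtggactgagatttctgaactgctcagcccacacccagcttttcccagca
Isg15: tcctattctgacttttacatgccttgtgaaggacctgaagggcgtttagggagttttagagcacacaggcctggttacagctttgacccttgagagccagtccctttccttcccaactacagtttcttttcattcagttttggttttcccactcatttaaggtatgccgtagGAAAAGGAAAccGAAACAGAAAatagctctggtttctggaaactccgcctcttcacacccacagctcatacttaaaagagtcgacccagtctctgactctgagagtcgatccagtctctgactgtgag
Cxcl10: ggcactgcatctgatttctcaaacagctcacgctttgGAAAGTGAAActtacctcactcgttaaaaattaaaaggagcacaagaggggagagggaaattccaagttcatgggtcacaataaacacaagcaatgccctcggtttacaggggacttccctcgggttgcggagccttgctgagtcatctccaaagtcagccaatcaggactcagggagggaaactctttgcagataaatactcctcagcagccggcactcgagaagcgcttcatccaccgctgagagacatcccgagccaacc

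Counted from the gene's start, the first match began at position -104 in Ifit1, -156 in Ifit3, -78 in Isg15 and -213 in Cxcl10. Ifit1, Ifit3 and Isg15 held 2 matches each that did not overlap. In Isg15 a further match lies between the marked ones, overlaps both and was not counted. Of the 15 list genes with a promoter in the table, 10 (66.7%) held the core, against 1079 of 27025 promoters of all genes (3.99%) and 3.95% of the promoters of included genes. Among 62 genes with a promoter whose CV exceeded 0.5 and whose highest sample was replicate 2, 24 (38.7%) held it. Interferon genes are part of that set. Where the highest sample was replicate 1, 3 of 103 (2.91%) held the core. Both sets were chosen by these same values, so their shares are descriptions. A match describes letters in a window and does not show that a factor was bound.

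Paralogs, genes that arose from a common ancestor and often serve the same task in different cells, were ranked within 40 families. Of 261 family genes in the table, 217 were above 1 RPKM. The same gene led in all 4 samples in 29 families, and in 15 of them it was at least 2 times above the second in every sample. Of 177 neighbouring pairs within the rankings, 108 (61.0%) had the same order in all samples. In the remaining pairs the order varied between samples, and their differences were not set against the spread. The leader was chosen by these same values, so its lead is a description. Near-identical copies such as tubulins and actins share reads, which makes their ranking uncertain.

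**Figure D3:**
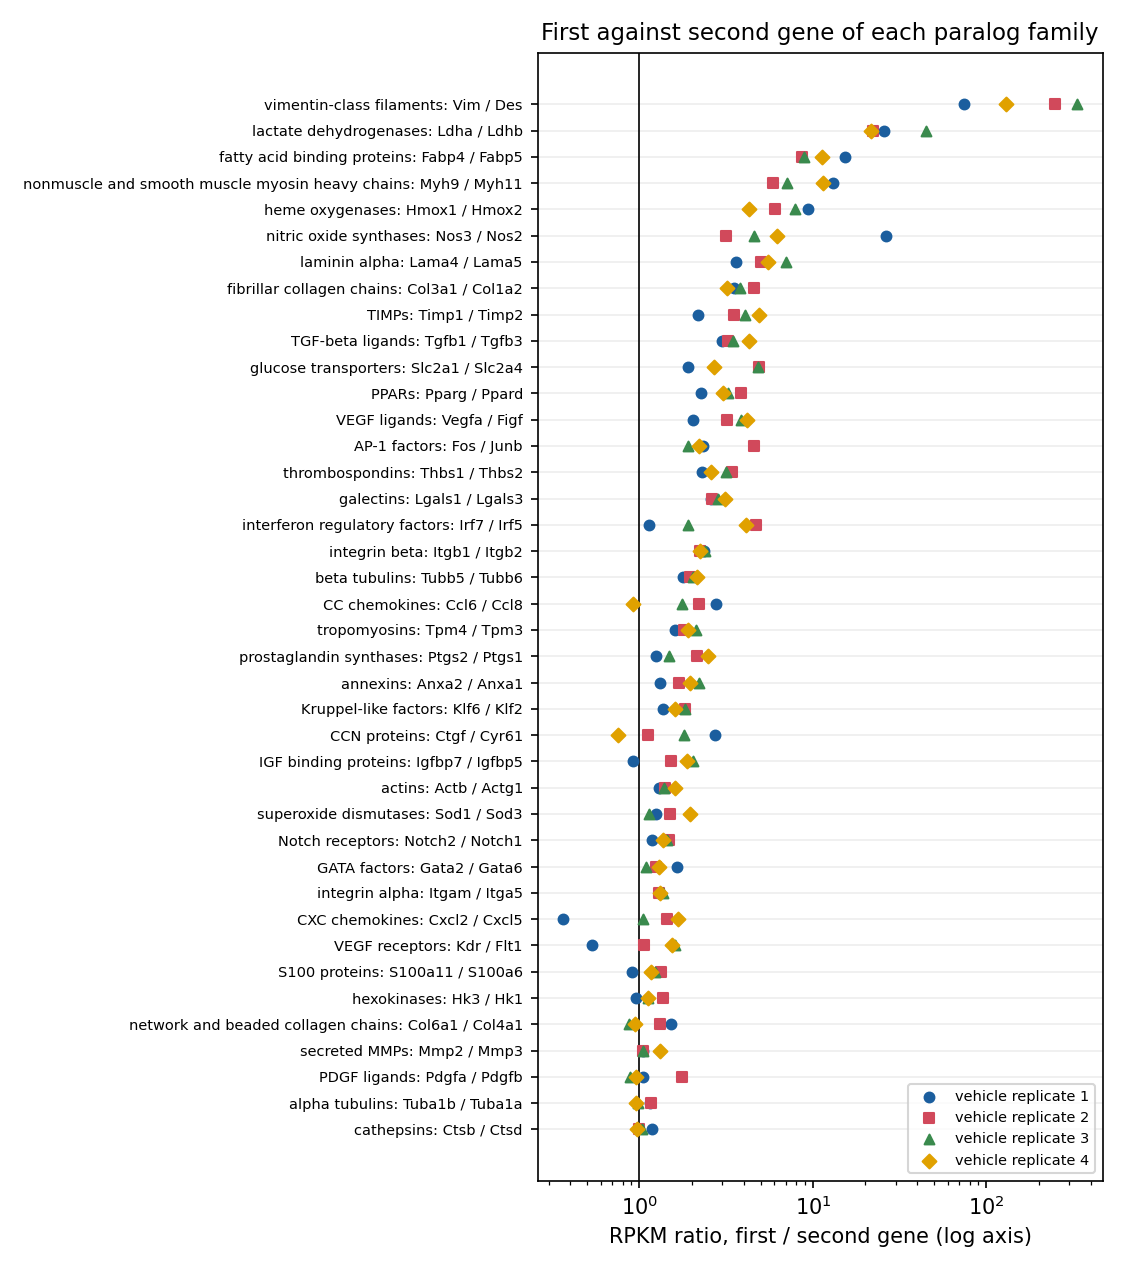
For each of 40 families, the RPKM of the gene with the highest mean divided by that of the second (log axis) in the 4 vehicle samples; points left of the vertical line at 1 mean that the second gene was higher in that sample. Vim exceeds Des 73.8 to 332 times, and Cxcl2 over Cxcl5 runs from 0.364 to 1.66.

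Structural families were led by genes of mesenchymal and non-muscle cells. The order of the actins was Actb, Actg1, Acta2, Acta1, Actg2 and Actc1 by mean, and Actb exceeded Actg1 by 1.30 to 1.60 times. Nonmuscle myosin Myh9 was at 87.6, 91.8, 103 and 99.9 RPKM, 5.93 to 13.004 times the smooth muscle form Myh11. Tropomyosin Tpm4 was at 228, 279.6, 347 and 241 RPKM and Tpm3 second at 147 ± 16.5 RPKM. Vimentin exceeded desmin (Des), the filament of muscle, by 73.8 times in replicate 1, where muscle genes were highest, and by 332 times in replicate 3, where they were lowest. Col3a1 led the fibrillar collagens at 3.22 to 4.56 times Col1a2, and the cartilage collagen Col2a1 was last with 0.0613 RPKM. In the basement membrane family, Lama4, the laminin alpha chain of vessels and fat, exceeded Lama5 by 3.60 to 6.999 times.

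Actin promoters are known for a serum response element, the CArG box, which binds the serum response factor in muscle and growth-stimulated cells. Of the 4 actins with a promoter in the table, 3 held a CArG box, against 1.81% of all genes, and both sequences below come from genes that behaved differently here, the muscle form Acta1 and the cytoplasmic form Actg1. They lie at chr8:123894726-123895025 and chr11:120348446-120348745, both on the minus strand, with the box in capitals, at positions -73 and -90 from the start.
Acta1: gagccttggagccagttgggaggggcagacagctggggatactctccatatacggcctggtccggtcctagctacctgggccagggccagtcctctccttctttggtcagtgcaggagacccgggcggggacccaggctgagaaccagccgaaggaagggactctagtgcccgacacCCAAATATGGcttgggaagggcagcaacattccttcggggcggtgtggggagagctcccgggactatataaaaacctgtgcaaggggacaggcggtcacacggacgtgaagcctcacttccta
Actg1: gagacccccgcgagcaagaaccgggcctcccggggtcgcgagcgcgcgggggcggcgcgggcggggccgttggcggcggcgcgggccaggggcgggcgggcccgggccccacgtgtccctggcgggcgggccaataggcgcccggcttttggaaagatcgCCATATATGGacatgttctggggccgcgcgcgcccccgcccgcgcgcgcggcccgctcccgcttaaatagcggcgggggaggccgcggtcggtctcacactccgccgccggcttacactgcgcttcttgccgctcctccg

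Acta1 ranged over the 4 samples from 0.317 to 139.6 RPKM and Actg1 from 707 to 977 RPKM, with the same kind of element in both windows. The TATAAA letters, searched on the gene's strand, were in 14 of 69 promoters (20.3%) of the 100 most abundant genes, in 5.38% of the promoters of included genes and in 9.77% of those of all genes.

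Among families of enzymes and carriers, some had 1 leader by a wide margin and others did not. Fabp4 exceeded Fabp5 by 8.61 to 15.2 times, and the liver form Fabp1 was listed at 0. Lactate dehydrogenase Ldha, the muscle-type subunit that favours lactate formation, exceeded the heart-type Ldhb by 21.6 to 44.9 times. Inducible Hmox1 exceeded constitutive Hmox2 by 4.30 to 9.37 times. Endothelial nitric oxide synthase (Nos3) was at 30.4, 18.1, 17.9 and 17.4 RPKM and the inducible form Nos2 at 1.14, 5.72, 3.89 and 2.82 RPKM. Their ratio was 26.5 in replicate 1 and 3.16 to 6.19 in the other samples. Glucose transporter Slc2a1 was at 10.9, 21.6, 18.9 and 19.2 RPKM and the insulin-responsive Slc2a4 of fat and muscle at 5.73, 4.41, 3.8999 and 7.17 RPKM. Hexokinases had no stable leader, with Hk3 at 0.954 to 1.36 times Hk1, and Hk2 led in replicate 1 at 12.9 RPKM. The extracellular Sod3, a superoxide dismutase bound to vessel matrix, was near the cytosolic Sod1, which exceeded it by 1.13 to 1.95 times. Pparg, the adipocyte regulator, exceeded Ppard by 2.25 to 3.84 times.

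Further families had no stable leader either. The cathepsins Ctsb and Ctsd, lysosomal proteases, were at 720.2 ± 102 and 688 ± 85.7 RPKM, with a ratio of 0.970 to 1.18. The VEGF receptor Kdr was at 9.97, 23.2, 28.2 and 31.5 RPKM and Flt1 at 18.7, 21.6, 17.6 and 20.5 RPKM, so that Flt1 led in replicate 1 and Kdr in the rest. The chemokine Ccl6 was at 531, 590.3, 399.8 and 174 RPKM and Ccl8 at 192, 269, 226 and 189 RPKM, and Ccl6 led except in replicate 4. Among the neutrophil chemokines, Cxcl2 was at 8.57, 50.4, 44.1 and 72.3 RPKM and Cxcl5 at 23.5, 34.9, 41.8 and 43.5 RPKM. Over the whole CXC family, Cxcl13 led in replicate 1 at 39.1 RPKM and Cxcl10 in replicate 2 at 74.2 RPKM. Pdgfa and Pdgfb averaged 10.4 and 9.61 RPKM, and neither was higher in every sample. Pdgfc led that family in replicate 1 at 7.52 RPKM. Without replicate 1, 33 of the 40 families had the same leader in the samples that remained. The count was 29 without replicate 2, 29 without replicate 3 and 32 without replicate 4. Agreement among fewer samples is easier to reach, so these counts cannot fall below that of all 4.

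Ligands and their receptors were both detected. In all 32 pairs looked at, both genes were above 1 RPKM, a mean that 51.8% of all genes in the table reached. The pairs are a chosen list, so this count is a description. The receptor was higher in every sample in 13 pairs and the ligand in 9, and in the rest the order varied. Macrophage colony-stimulating factor (Csf1) was steady at 21.1, 22.04, 23.6 and 23.2 RPKM, below its receptor Csf1r in every sample, and the second ligand Il34 averaged 1.31 RPKM. Platelet-derived growth factor Pdgfb was below its receptor Pdgfrb, which was at 17.3, 19.4, 17.6 and 17.9 RPKM. Transforming growth factor Tgfb1 was at 25.6, 19.9, 26.03 and 29.9 RPKM and its receptor Tgfbr2 at 74.7, 67.3, 63.9 and 51.6 RPKM. By contrast, Spp1 exceeded its receptor Cd44, at 94.4, 94.3, 82.998 and 43.5 RPKM, and Thbs1 exceeded Cd47, at 53.8, 54.4, 52.03 and 50.1 RPKM. Ccl2 was above Ccr2 in replicates 1, 2 and 3 and below it in replicate 4. RNA levels do not give the amount of protein, and a pair need not be made by neighbouring cells.

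Of 84 transcription factors listed, 75 were above 1 RPKM. After Fos, the highest was Xbp1, the factor of the unfolded protein response, at 119, 149, 124 and 89.4 RPKM. Irf7, which amplifies interferon signalling, was at 42.6, 127, 53.5 and 92.7 RPKM and followed the interferon genes in having its lowest value in replicate 1 and its highest in replicate 2. Nfe2l2, the regulator of antioxidant genes, was at 49.5, 56.6, 60.8 and 48.6 RPKM and Stat3, which transmits interleukin 6 signals, at 50.5, 52.02, 45.7 and 41.01 RPKM. Both differed little between samples beside Fos. Spi1, the factor of myeloid cells, which was picked out for its values, stood at 39.3, 39.1, 45.5 and 42.7 RPKM.

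Spread between samples was small for most genes and large for a few. The median CV over the 12100 genes was 0.134, the 10th percentile 0.0610 and the 90th 0.320. Counting noise alone, from the recovered reads, would give a median CV of 0.0319, and 401 genes (3.31%) had a CV at or under their own counting value. The CV was above 0.5 for 416 genes (3.44%) and above 1 for 45. The median CV was 0.149 for genes from 1 to 10 RPKM, 0.119 from 10 to 100 RPKM and 0.111 from 100 to 1000 RPKM. Leaving out replicate 1 lowered the median to 0.111 and the number above 0.5 to 222. Between replicates 3 and 4, 266 genes were 2-fold or more apart, and between replicates 1 and 4, 890.

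**Figure D4:**
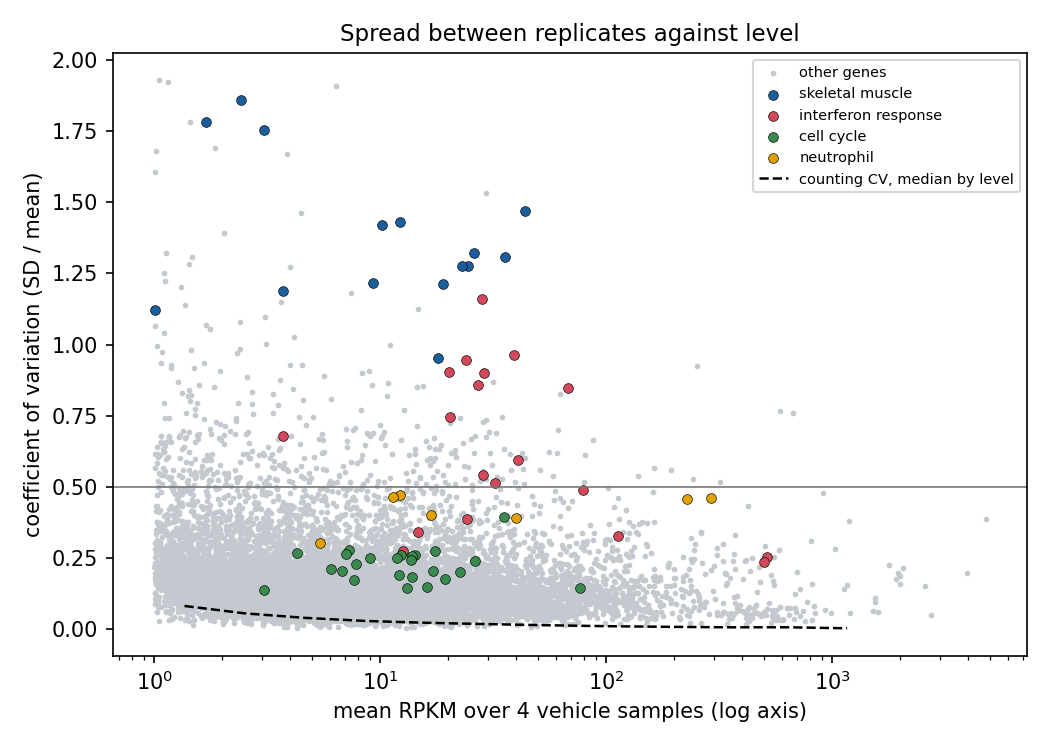
CV over the 4 vehicle samples against mean RPKM (log axis) for all 12100 genes (grey) and 4 lists (coloured); the dashed line is the median counting CV by level and the horizontal line a CV of 0.5. Skeletal muscle genes lie near or above a CV of 1, many interferon genes above 0.5, and neutrophil and cell cycle genes below 0.5.

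In the plot of spread against level, skeletal muscle and interferon genes lie among the genes of largest CV. Of the 5246 genes that averaged 10 RPKM or more, 124 had a CV above 0.5. The highest CV belonged to the microRNA gene Mir5109, at 10.7, 1.81, 96.97 and 8.49 RPKM, which was highest in replicate 3 and rested on 450 reads in all. Acta1 followed with a CV of 1.47. Further down came Cxcl10 (CV 1.16) and the B cell chemokine Cxcl13, at 39.1, 10.99, 2.58 and 6.38 RPKM and highest in replicate 1. A further 3 genes, named after their values were seen, had orders of their own. Stearoyl-CoA desaturase Scd1 was at 72.7, 70.1, 562 and 307 RPKM, high in replicates 3 and 4. The pentraxin Ptx3 was at 138, 49.6, 36.5 and 24.7 RPKM and stanniocalcin (Stc1) at 55.99, 32.4, 16.2 and 9.39 RPKM, both highest in replicate 1 and lowest in replicate 4.

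At the other end were genes with almost the same level in every sample. Mif4gd, a partner of histone mRNA binding proteins, was at 13.1, 12.9, 12.96 and 12.9 RPKM. Cd302, a lectin receptor of myeloid cells, was at 46.8, 46.3, 46.3 and 45.9 RPKM. The ubiquitin ligase Huwe1 was at 19.9, 20.3, 20.4 and 20.1 RPKM and the Hippo pathway coactivator Yap1 at 11.8, 11.7, 11.6 and 11.4 RPKM. Lrg1, a secreted glycoprotein that acts on endothelium and is an acute-phase protein, was the most abundant of the 20 steadiest genes with 149.8, 147, 152 and 151 RPKM. For Mif4gd the CV of 0.00634 was below its counting value of 0.0310, so its 4 values lay closer together than counting noise alone would place them on average.

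**Figure D5:**
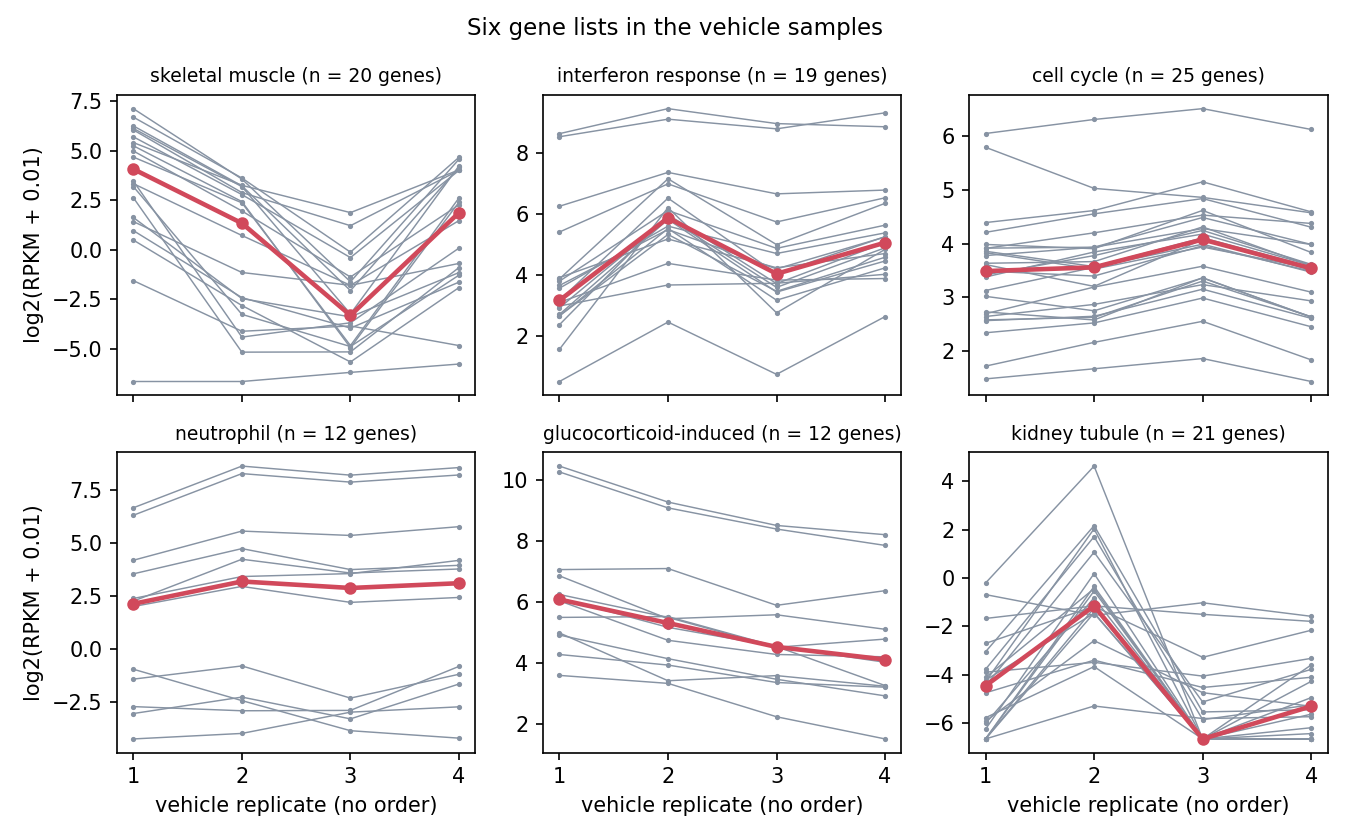
log2(RPKM + 0.01) of each gene (grey) and the median (red) in the 4 vehicle samples for 6 lists; lines join the values of 1 gene and imply no order of samples. Skeletal muscle and glucocorticoid-induced genes peak in replicate 1, interferon and kidney tubule genes in replicate 2, and cell cycle genes in replicate 3; the median of the neutrophil genes is lowest in replicate 1.

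The profiles of 6 lists show that no single order of the samples ran through the data. Replicate 1 was highest for most skeletal muscle, fibroblast and glucocorticoid-induced genes and lowest for all interferon and pericyte genes and most neutrophil genes. Replicate 2 was highest for most interferon, immediate early and kidney tubule genes. Replicate 3 was highest for most cell cycle and smooth muscle genes and lowest for skeletal muscle genes. Replicate 4 was highest for adipocyte, NK cell and endothelial sums and lowest for most fibroblast genes. The 4 samples form 1 group, so these orders are descriptions with no test, and the smallest 2-sided p of a sign-flip test over 4 values is 0.125 (exact permutation test).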

How the data were processed

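RNA was sequenced from whole outflow veins, and the authors deposited RPKM values, with 1 column per sample. The labels do not say whether a sample is 1 animal or a pool. Per the submitters' processing notes the build is mm10, and the library kit was TruSeq V2 per the labels' protocols. The sources used here give no aligner, counting tool, annotation, strand setting or filter, so reads of overlapping, antisense or near-identical genes cannot be told apart. RPKM divides by gene length and by total reads, so levels can be compared between genes, and 1 very abundant RNA lowers all others.

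Groups came from the treatment label, and no group was compared. Dixon's critical value was used only to pick out samples that lie apart, and a chi-square per degree of freedom only to check for a library deposited more than once. RPKM values step in multiples of 1 read, and those steps returned whole reads for 100% of 70972 values above 0, within 0.001 reads. For the 16505 genes above 0 in all 4 samples that holds for all 16505. Depth is a lower bound, since a factor common to all reads of a gene cannot be seen. On simulated data, 92.5% of 17416 genes were returned exactly and 94.9% of all reads were recovered. Counting CV and depth cover counting error only. The mean, SD and CV used 4 samples. Of the table's rows, 69 shared 26 symbols and were kept apart, 11 of them among the included genes.

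Genes named are the 30 of highest mean, the defining and most abundant members of each list and family, the most abundant transcription factors and ligand-receptor pairs, and the extremes of CV above a mean of 10 RPKM. Further list members were named after their values were seen. The included genes, the lists, the families and the pairs were chosen with earlier results of these data known. Of 693 list genes, 690 were found, 8 under another symbol. Gene coordinates, counted from 1, follow GENCODE vM21 (GRCm38, the same assembly as mm10), and promoters from RefSeq, matched by symbol. Alternatives left out each sample, rescaled each sample to a common sum, moved the threshold, used the median or a log scale, and left out haemoglobins or, after seeing the data, Rn45s and Lars2. Software was Python 3.11.15 with numpy 2.4.6, pandas 2.3.3, scipy 1.17.1 and matplotlib 3.10.9.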

Additional observations from a re-analysis of the deposited data

Results flagged for a closer look

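A sample was picked out when its gap to the nearest other sample was a larger part of the whole range of the 4 samples than Dixon's critical value, which chance passes in about 1 in 20 groups. Of 39 summed lists and the 30 most abundant genes, 6 met it. Replicate 4 lay above the other 3 samples for the summed endothelial genes (gap 0.877 of the range), the summed NK cell genes (0.857) and the summed adipocyte genes (0.855). The ribosomal protein gene Rps29 stood apart in replicate 1 (0.905), although its 4 values spanned only 749 to 796 RPKM. Replicate 2 lay above the rest for the summed kidney epithelium genes (0.904) and the summed hepatocyte genes (0.916). Both sums are low, and no gene of either list averaged 1 RPKM. The hepatocyte sum was 0.0574, 0.479, 0.0186 and 0.0517 RPKM. Over all 12100 genes, 709 (5.86%) met the same limit, with replicate 1 as the sample apart in 341, replicate 2 in 90, replicate 3 in 135 and replicate 4 in 143.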

How the results depend on the processing

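No paired analysis was possible because the 4 samples form 1 group and nothing was compared between groups. With 4 samples an SD is imprecise, and genes near 1 RPKM with few reads have a CV set partly by counting. The 20 most abundant genes held 13.2% of the summed RPKM, and 11.2% without Rn45s and Lars2. Leaving out 1 sample at a time moved that share from 12.7% to 13.6%, the median CV from 0.111 to 0.140, the number of genes with a CV above 0.5 from 222 to 524, the families with 1 leader from 29 to 33 and the median Spearman correlation from 0.955 to 0.978. The low values of the median CV (0.111) and of the count (222) were those without replicate 1. The median CV was 0.197 over all genes with a mean above 0, and the median SD was 0.165 on the log2(RPKM + 1) scale and 0.191 on the log2(RPKM + 0.1) scale, which are other units. Genes with a CV above 0.5 numbered 416, and 831 after rescaling each sample to a common sum, where more low genes pass the threshold of 1. They numbered 4418 over all genes with a mean above 0 and 124 at a mean of at least 10 RPKM. The median Spearman correlation was 0.968, and 0.918 at a mean of at least 10 RPKM, where the range of levels is narrower. Included genes numbered 13948 after rescaling, 13209 at a mean of 0.5 RPKM, 10794 at a mean of 2 RPKM and 12048 by the median. Leaving out 1 of 4 values cannot move a mean by more than 0.5 SD, so list sums are given by their change. Sums that moved by more than 1.5 times were skeletal muscle without replicate 1 (83.6 against 236 RPKM), NK cell without replicate 4 (5.04 against 9.26 RPKM), and, without replicate 2, kidney epithelium (0.557 against 1.42 RPKM) and hepatocyte (0.0426 against 0.152 RPKM). The cause was not tested where none is given.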

Other observations

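Some transcripts were nearly private to 1 sample. Genes of at least 0.5 RPKM that were more than 8 times above every other sample numbered 19 in replicate 1, 21 in replicate 2, 4 in replicate 3 and 9 in replicate 4. Leaving out microRNA, snoRNA and snRNA genes, they numbered 12, 21, 0 and 1. Of the 21 tubule genes of the list written after replicate 2 had been seen, which holds Kap, Miox and Slc34a1 that led to it, 19 had their highest value there. They took at least 3039 reads in replicate 2 and at least 220 to 309 in the other samples. Their share of the summed RPKM was 0.0147% in replicate 2, so they are rare there, and the defining thick limb genes Umod and Slc12a1 were at 0.354 and 0.0852 RPKM. The sources used here do not say how this RNA came to be in the sample, and its origin was not tested.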
